A study of Mus musculus with 2 samples.

Results

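Microbial sensors and their adaptors were described as a panel of 36 mouse genes chosen by name, namely the Toll-like receptors, the co-receptors Cd14 and Ly96, the adaptors and kinases that carry their signal, the NOD-like receptors and inflammasome components, the C-type lectins Clec7a, Clec4e, Clec4d and Clec4n with their adaptor Card9, and Mavs and Pglyrp1. Of these, 35 had a column in both count files, among 26981 genes in all, and Clec7a was not analysed here. Their levels came from single-cell RNA sequencing of CD45+ cells taken from the visceral adipose tissue (VAT) of 15-week-old C57BL/6 wildtype mice. One group drank normal water (NW) and the other received antibiotics (ABX), and both were specific pathogen-free, so the comparison asked how depletion of the gut microbiota bears on adipose immune cells. The study's methods describe the antibiotics as drinking water with ampicillin, streptomycin, colistin and vancomycin, singly or mixed, and the labels of the libraries name no agent. CD45+ cells were enriched with magnetic beads, endothelial- and fibroblast-like cells were still found among them, and 1 library was made per condition. How many mice stood behind a library was not given in the sources used here.

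These genes encode the proteins with which innate immune cells recognise microbial products. Toll-like receptors (TLRs) read lipoproteins, lipopolysaccharide and flagellin at the cell surface and nucleic acids in endosomes, and pass the signal through Myd88 or Ticam1 to IRAK kinases and NF-kB or interferon regulatory factors. NOD-like receptors and Aim2 act in the cytosol, some of them by assembling an inflammasome with Pycard and caspase-1, and the C-type lectins bind glycans and glycolipids of fungi and mycobacteria and signal through Card9. In adipose tissue, resident macrophages are the most abundant bearers of many of these receptors, and products of gut bacteria that reach the circulation are among their ligands.

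After the filters of the methods there were 12474 NW cells with a median of 5092 unique molecular identifiers (UMIs, the distinct mRNA molecules counted in a cell) and 12724 ABX cells with a median of 3845.5, and 196 cell barcodes occurred in both. Clusters were named from marker genes, as "-like" cell types, and no member of the panel was among the markers or the genes used for clustering. In every named type each of its own markers had UMIs, which alone sets no type apart, since macrophage markers had UMIs in nearly every type. The 16 types with at least 50 cells in each library were compared, from 5832 NW and 5043 ABX macrophage-like cells to 62 and 57 neutrophil-like cells. The fibroblast-like cells (5 and 88) were too few, and 394 and 434 cells stayed unnamed. A level is given as CPM, the summed UMIs of a gene in a type scaled to the summed UMIs of all genes in that type and library, so a lower level and fewer expressing cells within a type cannot be told apart by the CPM alone. With 1 library per condition the differences between NW and ABX have no replicate check, and the 95% intervals given cover counting error only. All 12 macrophage markers had UMIs in every type of both libraries, except neutrophil-like cells, with 11 of 12 in each library.

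Across cell types, the panel separated into a macrophage set, a conventional type 1 dendritic cell (cDC1) set and a neutrophil set. Of the 35 members, 18 had their highest CPM in the same type in both libraries with at least 100 UMIs there. Among them, 8 were highest in macrophage-like cells (Tlr2, Tlr4, Tlr5, Tlr7, Tlr8, Ly96, Ticam2 and Nlrc4), 4 in neutrophil-like cells (Nlrp3, Clec4e, Clec4d and Pglyrp1), 3 in cDC1-like cells (Tlr3, Tlr11 and Aim2), 2 in NK-like cells (Nod1 and Pycard) and 1 in plasma cell-like cells (Irak1). For 10 of the 18 the counting interval of the highest type lay above that of the next type in both libraries, namely Tlr2, Tlr3, Tlr5, Tlr7, Tlr11, Ly96, Nlrp3, Clec4e, Clec4d and Pglyrp1. The summed level of all 35 members was 1844 CPM in NW and 2074 CPM in ABX macrophage-like cells and 5852 and 5834 CPM in neutrophil-like cells. It was lowest in plasma cell-like cells, at 562 and 553 CPM.

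**Figure D1:**
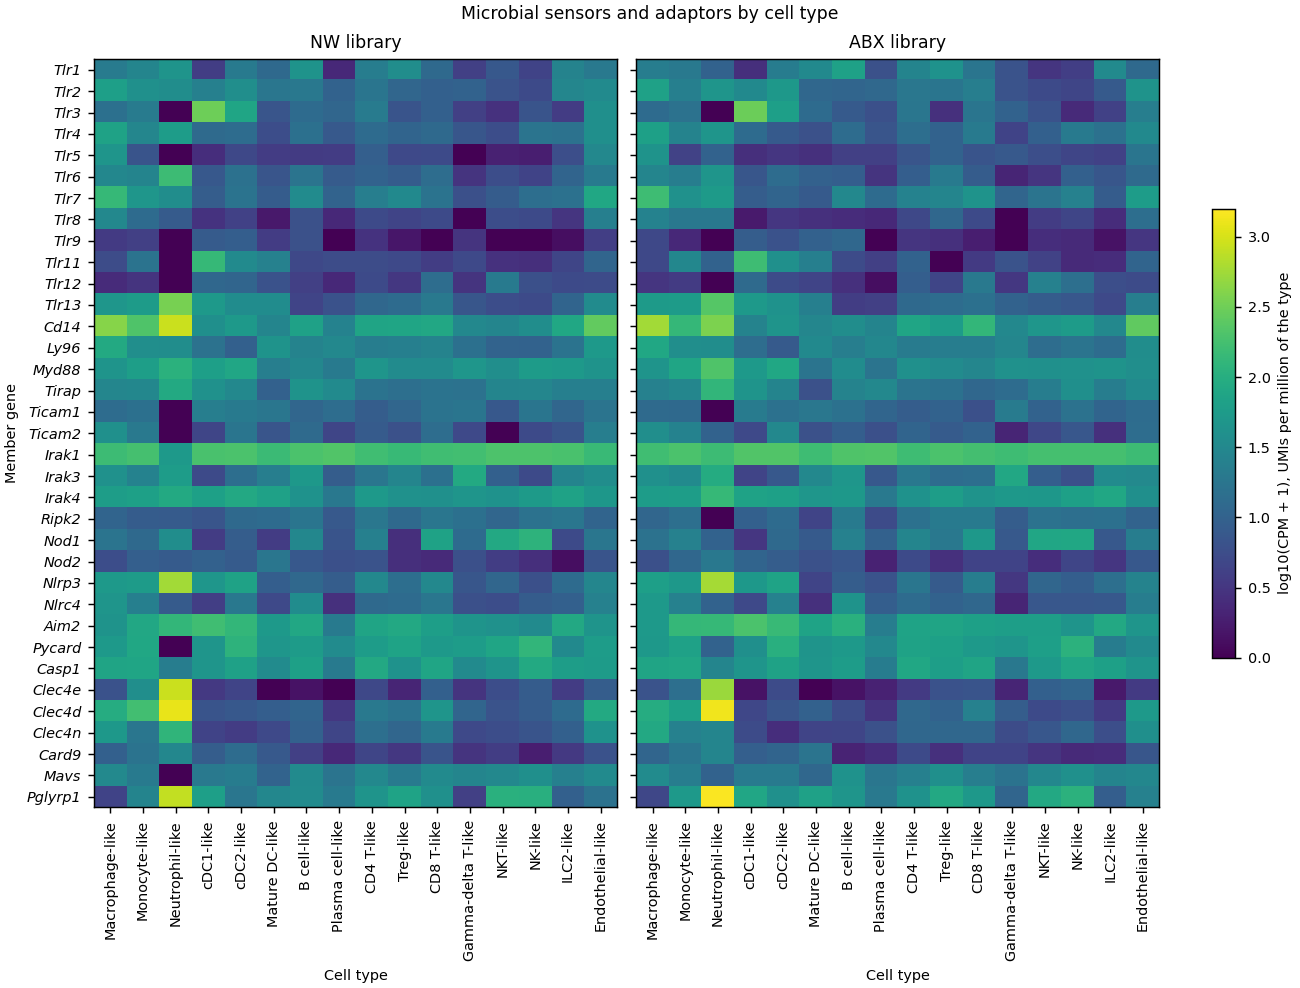
Levels of the 35 measured members (rows) in 16 cell types (columns) as log10(CPM + 1), with the NW library on the left and the ABX library on the right. Bright cells mark the cDC1-like column for Tlr3 and Tlr11, the neutrophil-like column for Nlrp3, Clec4e, Clec4d and Pglyrp1, and the macrophage- and neutrophil-like columns for Cd14, in both libraries.

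Between conditions, 28 of 214 pairs of member and type with at least 100 UMIs over both libraries differed by at least 1.5-fold. In ABX, 11 pairs were higher (5.14%, against 3.65% of the 91387 pairs of all genes and types tested in the same way) and 17 were lower (7.94%, against 3.6% of all pairs). The pairs of all genes were not matched to those of the members by UMI count, and ratios from few UMIs scatter more. The higher pairs came from 6 members and the lower pairs from 10, and 20 of the 35 members passed the fold in no type. Cd14 alone gave 3 of the higher and 4 of the lower pairs. Cells of 1 library are not replicates, and pairs of 1 gene in several types are not independent, so these counts describe the pair of libraries.

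Among the TLRs, the macrophage-like cells held the widest set. Tlr7, the endosomal receptor for single-stranded RNA, was at 136 CPM (4891 UMIs) in NW and 160 CPM (3637 UMIs) in ABX macrophage-like cells, a log2 ratio of ABX over NW of 0.23 with an interval of 0.17 to 0.30. The next type, endothelial-like cells, had 80.4 and 58.5 CPM. Macrophage markers summed to 18839 and 13540 CPM in those endothelial-like cells, 55.2% and 42.2% of the sum in macrophage-like cells (34108 and 32097 CPM), the highest share of any other type, and the part of this RNA in the endothelial-like values was not tested. Tlr8, its neighbour on chromosome X, was at 30.1 CPM in NW and 25.004 CPM in ABX macrophage-like cells, with a log2 ratio of -0.27 (-0.42 to -0.12). Tlr7 and Tlr8 were highest in macrophage-like cells in both libraries, and neither receptor passed the 1.5-fold threshold there.

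Tlr4, the receptor for lipopolysaccharide, was at 68.2 CPM in NW and 64.9 CPM in ABX macrophage-like cells, and its interval overlapped that of neutrophil-like cells (58.3 and 45.6 CPM, from 8 and 5 UMIs). Tlr5, the flagellin receptor, was at 46.0 and 42.7 CPM in macrophage-like cells and at 30.5 and 16.4 CPM in endothelial-like cells. Among all other types Tlr5 stayed at or below 9.13 CPM. Tlr2, which with Tlr1 or Tlr6 binds bacterial lipoproteins, was at 63.8 CPM in NW and 67.6 CPM in ABX macrophage-like cells, against 37.3 and 50.4 CPM in conventional type 2 dendritic cell (cDC2)-like cells. The levels of Tlr2, Tlr4 and Tlr5 in macrophage-like cells were therefore close in both libraries, with log2 ratios of 0.08, -0.07 and -0.11.

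Tlr1 was higher in B cell-like than in macrophage-like cells. In B cell-like cells it was at 43.0 CPM (98 UMIs in 411 cells) in NW and 65.9 CPM (303 UMIs in 979 cells) in ABX, a log2 ratio of 0.62 (0.28 to 0.96), and it was the 1 member of 17 tested that was at least 1.5-fold higher there, where 1.85% of 7407 genes were. This call was kept under 9 of 15 alternative settings, that is, it stayed past the fold with at least 100 UMIs. Settings with a lower UMI minimum or none leave each ratio as it is, so they keep every call. The B cell-like cells included a cluster led by Vpreb3 and Vpreb1, genes of B cell precursors, with 52 NW and 26 ABX cells. It made up 12.7% of the B cell-like cells in NW and 2.66% in ABX. Its part in the B cell-like ratios of Tlr1, and of Cd14 and Tirap below, was not tested. In macrophage-like cells Tlr1 was at 20.5 and 21.96 CPM. Tlr6, the partner gene next to Tlr1 on chromosome 5, ranged over the types from 2.04 to 153 CPM in NW and from 1.13 to 45.6 CPM in ABX, with no type past the fold among 3 tested. The coding sequences of Tlr1 and Tlr6 share long near-identical stretches, and how the authors' pipeline assigned reads that match both was not given, so their split is uncertain.

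Tlr3 and Tlr11 marked the cDC1-like cells, the dendritic cells that cross-present antigen. Tlr3, the endosomal receptor for double-stranded RNA, was at 312 CPM (3207 UMIs) in NW and 304 CPM (2160 UMIs) in ABX cDC1-like cells, 4.18 and 4.83 times the level in the next type, cDC2-like cells (74.7 and 63.0 CPM). Of the cDC1-like cells, 74.0% (of 1233) in NW and 68.9% (of 945) in ABX had a Tlr3 UMI, as did 23.9% and 23.1% once each cell was thinned to 1000 UMIs. In NK-like cells the thinned shares were 0.358% and 0.124%, at median depths of 3199 and 3150 UMIs against 8445 and 7769 in cDC1-like cells. The Tlr3 level of cDC1-like cells was close in both libraries, with a log2 ratio of -0.04 (-0.12 to 0.04).

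Tlr11, which in mice binds profilin of apicomplexan parasites, was at 140 CPM (1436 UMIs) in NW and 159 CPM (1127 UMIs) in ABX cDC1-like cells. It had a UMI in 55.7% and 55.1% of them, and in 12.6% and 13.8% after thinning, against 0.127% and 0.267% of NK-like cells. The level in cDC2-like cells was 32.7 and 39.4 CPM, so cDC1-like cells had 4.27 and 4.03 times as much. Both receptors were seen in the same cell, before thinning, in 47.1% of NW (44.3 to 49.95, exact binomial interval) and 43.1% of ABX cDC1-like cells (39.9 to 46.3). No member of the 25 tested in cDC1-like cells passed the fold in either direction, where 1.38% of 9056 genes were higher and 1.55% lower.

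Tlr11, like Tlr3, stood apart in cDC1-like cells, and the 250 bases before its RefSeq start are shown as 1 example (GRCm38.p6, chr14:50357664-50357913, plus strand). Capitals mark matches on either strand to letters typical of ETS factors (GAGGAA) and of interferon regulatory factors (IRF, a pair of GAAA with 2 bases between them), families with known roles in myeloid cells.
Tlr11: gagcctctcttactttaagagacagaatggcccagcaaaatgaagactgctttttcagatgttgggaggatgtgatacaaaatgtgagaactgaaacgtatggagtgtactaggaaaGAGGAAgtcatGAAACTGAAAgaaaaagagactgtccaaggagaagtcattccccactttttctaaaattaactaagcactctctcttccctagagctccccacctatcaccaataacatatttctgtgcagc
The window held 1 ETS and 1 IRF match. That of Tlr3, also highest in cDC1-like cells, held neither, and that of Aim2, the third such member, held 2 ETS matches and no IRF match. Among 32851 mouse promoters of the same length, 23.3% held the ETS letters and 2.98% the IRF letters, and of the 29 members with a promoter listed and used here, 13 held the former and 2 the latter. A match describes the letters and is not a binding site.

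The other nucleic acid sensing TLRs were low or spread over types. Tlr9, the receptor for CpG DNA, was at 5.26 and 10.9 CPM in B cell-like cells and 7.19 and 7.74 CPM in cDC1-like cells. In macrophage-like cells it was at 2.54 CPM (91 UMIs) in NW and 3.92 CPM (89 UMIs) in ABX, a log2 ratio of 0.63 (0.19 to 1.07), and 1.46% and 1.57% of these cells had a UMI. This Tlr9 call was kept under 10 of 15 alternatives. The ratio fell just under the fold, to 0.55 with TMM scaling and 0.57 on thinned shares. Tlr13, which binds bacterial ribosomal RNA, was highest in neutrophil-like cells, at 350 CPM in NW and 228 CPM in ABX from 48 and 25 UMIs, ahead of monocyte-like cells at 55.7 and 55.5 CPM. Its level in endothelial-like cells was 34.4 and 22.5 CPM. Tlr12, a partner of Tlr11, ranged from 0 to 19.8 CPM in NW and from 0 to 24.8 CPM in ABX. The highest Tlr12 value was that of NKT-like cells in both libraries, with 21 and 46 UMIs.

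Of the co-receptors, Cd14, which hands lipopolysaccharide to Tlr4 and Ly96, varied most between conditions. In macrophage-like cells it was at 420 CPM (15069 UMIs) in NW and 573 CPM (12989 UMIs) in ABX. The log2 ratio was 0.45 (0.41 to 0.48), under the 1.5-fold threshold. The share of macrophage-like cells with a Cd14 UMI was 70.5% and 66.2%, and 29.1% and 34.4% after thinning to 1000 UMIs, against 2.02% and 2.62% of plasma cell-like cells, whose median depths were 13806 and 11514 UMIs. So at equal depth more ABX macrophage-like cells had a Cd14 UMI, while the unthinned share was lower in the shallower ABX library.

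In neutrophil-like cells Cd14 was lower in ABX, at 874 CPM (120 UMIs in 62 cells) in NW and 374 CPM (41 UMIs in 57 cells) in ABX. The log2 ratio was -1.22 (-1.77 to -0.70), and this call was kept under all 14 alternatives that gave a value. Neutrophil-like cells with a Cd14 UMI made up 46.8% and 35.1%. Cells with a UMI of another lineage's defining genes made up 3.23% of NW and 26.3% of ABX neutrophil-like cells. Macrophage markers summed to 3796.7 and 5952.5 CPM in the neutrophil-like cells. The part of either in the neutrophil-like ratios of Cd14, and of Clec4e and Pglyrp1 below, was not tested. In monocyte-like cells Cd14 was at 207 CPM (606 UMIs) in NW and 133 CPM (201 UMIs) in ABX, a log2 ratio of -0.64 (-0.88 to -0.41) that was kept under 8 of 15 alternatives and was 0.10 with 50 principal components. Macrophage markers moved the same way in these cells, at 10928 CPM in NW and 7952 CPM in ABX, and their part in the Cd14 difference was not tested.

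Cd14 also passed the fold in 5 lymphoid types, in both directions, and there macrophage markers moved in the same direction. In ILC2-like cells it was at 78.6 CPM (262 UMIs) in NW and 30.1 CPM (135 UMIs) in ABX, a log2 ratio of -1.38 (-1.69 to -1.08). A single NW cell held 96 of these UMIs, and with at most 3 UMIs counted per cell the ratio was -0.48. In B cell-like cells it was at 66.6 and 36.5 CPM (-0.87), which became -0.25 with that limit. The ratio was 0.30 without the cells that Scrublet, a doublet caller, marked with its automatic thresholds, 344 in NW and 1 in ABX. With 1 doublet threshold for both libraries the B cell-like call was kept. The 12 macrophage markers summed to 3314 and 2224 CPM in ILC2-like cells and to 3742 and 2405 CPM in B cell-like cells, lower in ABX in both.

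The opposite direction was seen in CD8 T-, NKT- and NK-like cells. Cd14 was at 82.6 CPM (58 UMIs) in NW and 131 CPM (156 UMIs) in ABX CD8 T-like cells, at 27.3 CPM (29 UMIs) and 47.4 CPM (88 UMIs) in NKT-like cells, and at 36.1 CPM (43 UMIs) and 56.1 CPM (78 UMIs) in NK-like cells. The log2 ratios were 0.66, 0.79 and 0.64. In CD8 T-like cells the ratio was 0.77 with at most 3 UMIs counted per cell and 1.06 on thinned shares. In NKT-like cells these values were 0.54 and 0.65. Macrophage markers were higher in ABX in all 3 types, at 6103 and 7509 CPM, 2735 and 3237 CPM, and 2805 and 2889 CPM. Cd14 and the markers thus shared their direction in each of these called lymphoid types, and the part of macrophage RNA was not tested. The markers were also lower in ABX in lymphoid types where Cd14 did not pass the fold. They summed to 6217 and 5064 CPM in CD4 T-, 5235 and 4266 CPM in Treg-, 2973.5 and 1850 CPM in gamma-delta T- and 2114 and 1811 CPM in plasma cell-like cells. Without cells that carried a UMI of another lineage's defining genes, the NKT-like ratio was -0.35. The calls were kept under 11 of 14, 8 of 14 and 7 of 15 alternatives in CD8 T-, NKT- and NK-like cells. In NK-like cells 10 ABX cells held 71.8% of the UMIs, and the ratio was 0.19 with at most 3 UMIs counted per cell and 0.04 on thinned shares.

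**Figure D2:**
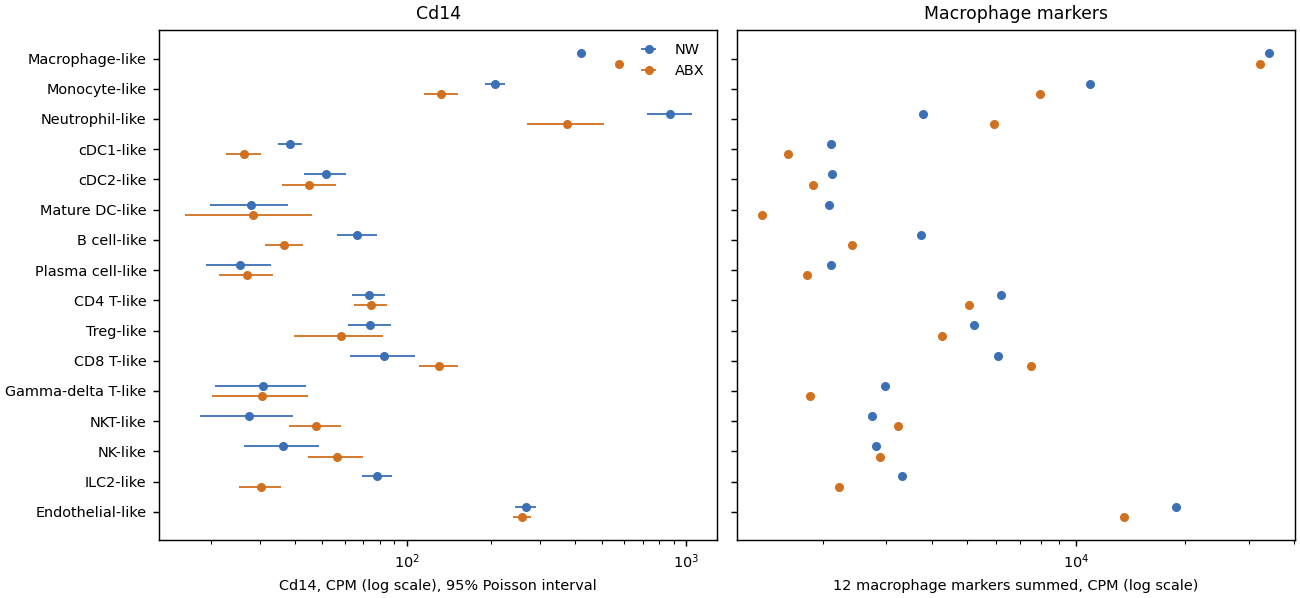
Left, Cd14 level (CPM, log axis, with 95% Poisson intervals) in each cell type in the NW (blue) and ABX (orange) libraries, and right, the summed CPM of 12 macrophage markers in the same types (log axis). Cd14 is lower in ABX in neutrophil- and monocyte-like cells, at 874 to 374 CPM and 207 to 133 CPM, and in ILC2-, B cell-, CD8 T-, NKT- and NK-like cells its order between libraries is that of the macrophage markers.

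Ly96, the protein that completes the Tlr4 receptor, was at 88.0 CPM in NW and 80.2 CPM in ABX macrophage-like cells and at 52.8 and 36.3 CPM in endothelial-like cells, with no type past the fold among 8 tested. Tlr4, Cd14 and Ly96 were seen together in 11.8% of NW (11.0 to 12.7) and 6.50% of ABX macrophage-like cells (5.84 to 7.22). The ABX cells were shallower, with a median of 4071 UMIs against 5642.5, and these shares were not thinned, so depth and co-expression cannot be told apart here.

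The macrophage-like cells consisted of 5 clusters, and the sensors were unevenly spread over them. The cluster led by Ccl12, Cx3cr1 and Il1b, with 605 NW and 804 ABX cells, had the highest Cd14 level of the 5 in both libraries, at 805 and 937 CPM against 356 to 392 CPM and 384 to 525 CPM in the others. Tlr2 was at 145 and 137 CPM there, against 42.8 to 56.2 CPM and 41.2 to 57.1 CPM, and Nlrp3 at 199 and 184 CPM, against 32.8 to 44.5 CPM and 23.6 to 44.0 CPM. Clec4n was at 122 and 152 CPM in it. A small cluster led by the interferon-stimulated genes Ifit3 and Rsad2 (61 and 62 cells) had the highest Tlr7 level, at 192 and 261 CPM. Tlr4 varied little between clusters, by 1.33 times in NW and 1.41 times in ABX from the lowest to the highest.

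The Ccl12 cluster made up 10.4% of NW and 15.9% of ABX macrophage-like cells, and the cluster led by Lyve1 and Fcna 44.5% and 36.7%. Within clusters, the log2 ratio of Cd14 was 0.49 in the Lyve1 cluster, 0.35 in the cluster led by Retnla and Cd163, 0.22 in the Ccl12 cluster, 0.10 in that led by Vcam1 and Cd93 and 0.22 in the Ifit3 cluster. All 5 clusters thus had a higher Cd14 value in ABX, with intervals that reached below 0 in the last 2.

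**Figure D3:**
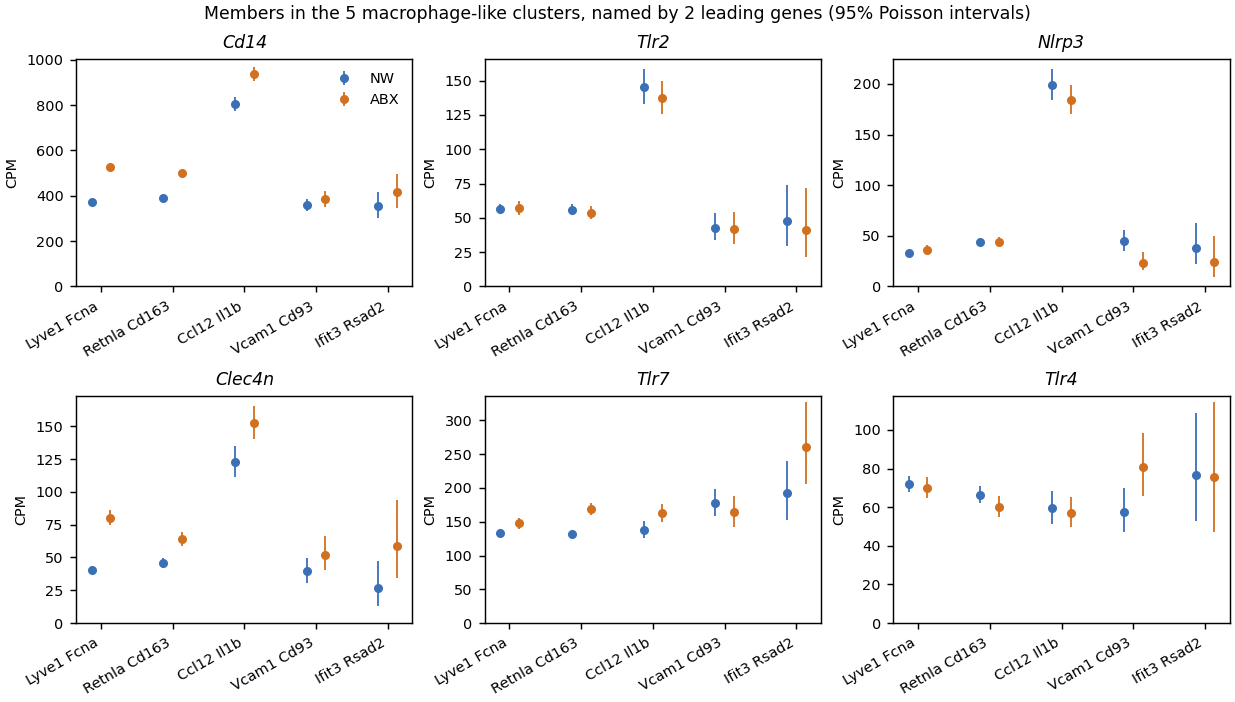
Levels (CPM, linear axes from 0, 95% Poisson intervals) of 6 members in the 5 macrophage-like clusters, each named by 2 leading genes, in NW (blue) and ABX (orange). The cluster led by Ccl12 and Il1b is highest for Cd14, Tlr2, Nlrp3 and Clec4n in both libraries, and that led by Ifit3 and Rsad2 is highest for Tlr7.

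The adaptors and kinases were broadly expressed. Irak1, the kinase recruited by Myd88, was highest in plasma cell-like cells at 211 and 212 CPM, but the next types were at 201 CPM (NK-like, NW) and 211 CPM (cDC1-like, ABX), and the intervals overlapped. Ticam2, the bridging adaptor of Tlr4, was at 39.4 and 36.7 CPM in macrophage-like cells. Tirap, which links Myd88 to Tlr2 and Tlr4, was at 43.4 CPM (99 UMIs) in NW and 25.9 CPM (119 UMIs) in ABX B cell-like cells, a log2 ratio of -0.75 (-1.14 to -0.35). With Cd14, it made 2 members lower in B cell-like cells, where 7.67% of 7407 genes were. No type passed the fold for Myd88 (10 types tested, 19.0 to 109 CPM in NW and 15.8 to 210 CPM in ABX), Ticam1 (2 types), Irak3 (7 types), Irak4 (12 types) or Ripk2, the kinase below Nod1 and Nod2 (4 types). Myd88, Tirap and Irak4 had their highest CPM in neutrophil-like cells in both libraries, from 38, 26 and 27 UMIs in all, and Irak3 was at 87.7 and 82.3 CPM in gamma-delta T-like cells. Irak1, Myd88, Tirap, Irak3 and Irak4 had UMIs in every type, and for none of them did the highest type stand apart from the next in both libraries.

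The cytosolic sensors had other leading types. Nlrp3, the inflammasome sensor of cell stress and ion flux, was at 568 CPM (78 UMIs) in NW and 593 CPM (65 UMIs) in ABX neutrophil-like cells. The next type was cDC2-like cells at 69.6 and 70.6 CPM, so neutrophil-like cells had 8.17 and 8.40 times as much. An Nlrp3 UMI was present in 54.8% and 52.6% of neutrophil-like cells, and in 39.7% and 39.2% after thinning, against 0.556% and 0.539% of plasma cell-like cells. In CD4 T-like cells Nlrp3 was at 29.99 CPM (91 UMIs) in NW and 17.2 CPM (49 UMIs) in ABX, a log2 ratio of -0.80 (-1.33 to -0.28), while their macrophage markers summed to 6217 and 5064 CPM, whose part was not tested.

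Nlrc4, which with NAIP proteins senses flagellin and secretion systems, was at 45.3 and 53.5 CPM in macrophage-like cells and at 34.6 and 43.3 CPM in B cell-like cells, with overlapping intervals in NW. Nod1, which senses a peptidoglycan peptide, was at 115 CPM (137 UMIs) in NW and 79.1 CPM (110 UMIs) in ABX NK-like cells, a log2 ratio of -0.54 (-0.91 to -0.17), and NKT-like cells followed at 84.8 and 76.5 CPM. In macrophage-like cells Nod1 reached no more than 38.4 CPM in any cluster. Nod2, the sensor of muramyl dipeptide, ranged from 0.2999 to 16.9 CPM in NW and 0.995 to 18.3 CPM in ABX. Nod1 was thus highest in NK- and NKT-like cells, whose intervals overlapped in both libraries.

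Aim2, the sensor of cytosolic DNA, was highest in cDC1-like cells at 166 CPM in NW and 194 CPM in ABX, followed by neutrophil-like cells (131 CPM) in NW and cDC2-like cells (141 CPM) in ABX. In monocyte-like cells it was at 80.9 CPM (237 UMIs in 613 cells) in NW and 136 CPM (205 UMIs in 482 cells) in ABX, a log2 ratio of 0.74 (0.47 to 1.02) that was kept under 11 of 15 alternatives. Monocyte-like cells with a UMI made up 25.8% and 28.2%, and 11.1% and 17.7% after thinning. NKT-like cells had 40.5 and 60.9 CPM (0.59, 0.07 to 1.13), a call kept under 5 of 14 alternatives and at 0.04 with 50 principal components. With Cd14 they made 2 members higher in NKT-like cells, where 1.87% of 4930 genes were. The annotated Aim2 model on chromosome 1 (173350879 to 173466040, plus strand) overlaps Cadm3 on the opposite strand at its far 5′ end, and whether the counting used strand was not given.

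Pycard, the adaptor that joins sensors to caspase-1, was at 125 and 113 CPM in NK-like cells and 118 and 104 CPM in cDC2-like cells, with overlapping intervals. It was lower in ABX in ILC2-like cells, at 32.1 and 21.0 CPM (log2 ratio -0.61), and in endothelial-like cells, at 58.2 CPM (120 UMIs) and 33.1 CPM (91 UMIs), with a log2 ratio of -0.81 (-1.22 to -0.41). Casp1 itself passed the fold in none of 13 types and ranged from 19.0 to 88.1 CPM in NW and from 18.04 to 79.2 CPM in ABX.

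The C-type lectins Clec4d and Clec4e, neighbouring genes on chromosome 6 that bind mycobacterial glycolipids, were highest in neutrophil-like cells. Clec4d was at 1239 CPM (170 UMIs) in NW and 1342 CPM (147 UMIs) in ABX neutrophil-like cells, 7.34 and 14.1 times the next type, and had a UMI in 85.5% and 78.9% of them. Thinned to 1000 UMIs these shares were 68.9% and 66.5%, against 0.164% and 0.281% of plasma cell-like cells. Clec4e, the sensor also known as Mincle, was at 874 CPM (120 UMIs) in NW and 520 CPM (57 UMIs) in ABX neutrophil-like cells, a log2 ratio of -0.75 (-1.23 to -0.28). This Clec4e call was kept under 11 of the 14 alternatives that gave a value. The ratio was -0.51 with at most 3 UMIs counted per cell and -0.44 on thinned shares. In each library 10 cells held most of its UMIs, 67.5% in NW and 80.7% in ABX. Both lectins were seen in 48.4% of NW (35.5 to 61.4) and 26.3% of ABX neutrophil-like cells (15.5 to 39.7), at median depths of 1839 and 1514 UMIs. Cd14 and Clec4e were the 2 members lower in neutrophil-like cells, where 11.9% of the 430 genes tested were, while Clec4d and Nlrp3 lay within their intervals.

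In monocyte-like cells the pair was lower in ABX. Clec4d was at 169 CPM (494 UMIs) in NW and 64.8 CPM (98 UMIs) in ABX, a log2 ratio of -1.38 (-1.71 to -1.06). Clec4e was at 37.2 CPM (109 UMIs) in NW and 13.9 CPM (21 UMIs) in ABX, a log2 ratio of -1.42 (-2.17 to -0.74). These UMIs sat in few cells: 14.7% of NW and 6.02% of ABX monocyte-like cells had a Clec4d UMI, 1 NW cell held 114, and 10 cells held 65.2% of the NW total. With at most 3 UMIs counted per cell the ratios were -0.75 and -1.14, so both stayed past the fold. The Clec4d call was kept under 12 of 15 alternatives, with ratios of -0.32 without cells of another lineage's genes, -0.40 with clusters from RNA only and -0.44 with 50 principal components, and the Clec4e call under 14 of 15.

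The promoters of this pair are shown for comparison, as the 250 bases before the RefSeq start (GRCm38.p6) of Clec4e (chr6:123289872-123290121, minus strand) and of Clec4d (chr6:123261857-123262106, plus strand). Capitals mark matches on either strand to the ETS letters and to letters typical of C/EBP factors (TTGCNNAA), which act in neutrophil and monocyte genes.
Clec4e: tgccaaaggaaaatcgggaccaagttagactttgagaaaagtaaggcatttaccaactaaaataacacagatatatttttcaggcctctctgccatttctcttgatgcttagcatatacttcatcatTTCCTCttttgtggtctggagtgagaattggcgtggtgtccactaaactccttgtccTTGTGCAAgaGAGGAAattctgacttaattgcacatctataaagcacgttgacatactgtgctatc
Clec4d: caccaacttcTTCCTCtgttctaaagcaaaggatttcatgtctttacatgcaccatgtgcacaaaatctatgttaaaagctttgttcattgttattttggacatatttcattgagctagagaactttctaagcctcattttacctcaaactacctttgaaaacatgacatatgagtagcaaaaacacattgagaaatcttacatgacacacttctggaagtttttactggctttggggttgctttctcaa
Clec4e held 2 ETS matches and 1 C/EBP match, and Clec4d held 1 ETS match. C/EBP letters occurred in 9.56% of all 32851 promoters and in 5 of the 29 members' promoters. NF-kB letters (GGGA and CC with 4 bases between them) were in neither of the 2 windows, in 6 of the 29 and in 17.6% of all promoters.

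Clec4n (Dectin-2), the receptor for fungal mannans in the same gene cluster (chromosome 6, 123229843 to 123247021, plus strand), behaved differently from its neighbours. In macrophage-like cells it was at 50.04 CPM (1794 UMIs) in NW and 84.1 CPM (1906 UMIs) in ABX, a log2 ratio of 0.75 (0.65 to 0.84). A Clec4n UMI was present in 17.4% and 18.9% of the cells, and in 4.40% and 6.46% after thinning, against 0.306% and 0.709% of plasma cell-like cells. The call was kept under 14 of 15 alternatives, and on thinned shares it was 0.55. The direction was the same in each of the 5 clusters, with log2 ratios of 0.98 (Lyve1), 0.48 (Retnla), 0.32 (Ccl12), 0.40 (Vcam1) and 1.14 (Ifit3). Only the ratios of the Lyve1 and Ifit3 clusters were past 1.5-fold. The intervals of the Vcam1 and Ifit3 clusters reached below 0. Clec4d, by contrast, was at 94.5 and 94.9 CPM in macrophage-like cells, and Clec4e at 5.44 and 5.56 CPM.

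Clec4n and Tlr9 were the 2 members higher in ABX macrophage-like cells among 35 tested, where 5.13% of 11153 genes were higher and 1.53% lower, and no member was lower. The median log2 ratio of the members was 0.03, beside 0.02 over all genes. Card9, the adaptor of these lectins, ranged from 0.839 to 29.1 CPM in NW and from 1.09 to 27.4 CPM in ABX, with no type past the fold among 2 tested. Mavs, the mitochondrial adaptor of RNA sensing, passed the fold in none of 6 types, with its highest levels at 37.7 CPM in NW (NK-like) and 41.3 CPM in ABX (B cell-like).

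Pglyrp1, a secreted bactericidal protein that binds peptidoglycan, was higher in ABX in each myeloid type in which it passed the fold. In neutrophil-like cells it was at 816 CPM (112 UMIs) in NW and 1497 CPM (164 UMIs) in ABX, a log2 ratio of 0.88 (0.52 to 1.24), with a UMI in 59.7% and 71.9% of the cells. That call was kept under 13 of the 14 alternatives that gave a value, and the ratio was 0.50 on thinned shares. In monocyte-like cells Pglyrp1 was at 26.6 CPM (78 UMIs) and 53.6 CPM (81 UMIs), a log2 ratio of 1.01 (0.54 to 1.48). This call was kept under all 15 alternatives, of which those with a lower UMI minimum could not lose it. These UMIs sat in 5.87% of NW and 7.05% of ABX monocyte-like cells, and 10 cells held 61.5% and 64.2% of them. In cDC2-like cells Pglyrp1 was at 17.1 CPM (44 UMIs) and 38.9 CPM (71 UMIs), a log2 ratio of 1.18 (0.62 to 1.76). NK-like cells had 105 and 112 CPM and macrophage-like cells no more than 4.71 CPM in any cluster.

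In monocyte-like cells the members past the fold went in both directions. Pglyrp1 and Aim2 were the 2 members higher in ABX of 21 tested, where 6.32% of 6284 genes were, and Clec4e, Clec4d, Tlr2 and Cd14 were the 4 lower, where 7.07% were. Tlr2 was at 39.6 CPM (116 UMIs) in NW and 23.1 CPM (35 UMIs) in ABX, a log2 ratio of -0.78 (-1.36 to -0.22). The Tlr2 call was kept under 11 of 15 alternatives, and the ratio was -0.25 on thinned shares. With 50 principal components only the Pglyrp1 call was kept among the monocyte-like ones. The median log2 ratio of the 21 members was -0.12, beside 0.03 over all genes. The 4 lower members had levels in NW macrophage-like cells of 63.8 CPM (Tlr2), 420 CPM (Cd14), 94.5 CPM (Clec4d) and 5.44 CPM (Clec4e), and macrophage markers in monocyte-like cells were at 32.0% (NW) and 24.8% (ABX) of their macrophage-like sum. The part of macrophage RNA in these 4 differences was not tested. Cells with a UMI of another lineage's genes made up 15.2% and 18.05% of the monocyte-like cells.

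**Figure D4:**
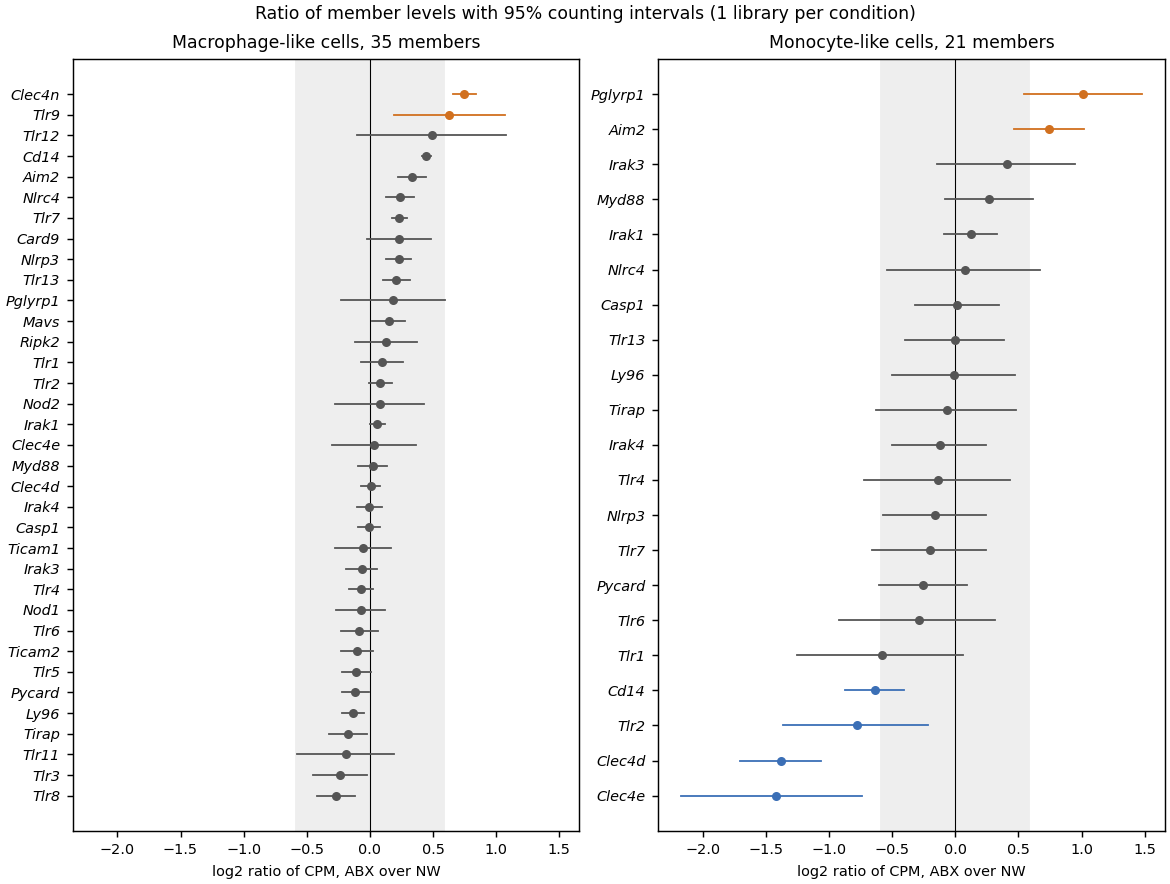
Log2 ratio of CPM, ABX over NW, with 95% counting intervals, for the 35 members in macrophage-like cells (left) and the 21 tested in monocyte-like cells (right). Orange and blue mark ratios of at least 1.5-fold up and down, and grey shading the range below it. In macrophage-like cells all but Clec4n and Tlr9 lie inside the shading, and in monocyte-like cells 6 members lie outside it.

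In ILC2- and endothelial-like cells every member past the fold was lower in ABX. In ILC2-like cells Tlr2 was at 28.5 CPM (95 UMIs) in NW and 7.14 CPM (32 UMIs) in ABX, a log2 ratio of -2.00 (-2.62 to -1.41), the largest of the 28. A single NW cell held 38 of the 95 UMIs, and with at most 3 UMIs per cell the ratio was -0.98, with too few UMIs left for a call. The call was also lost without cells of another lineage's genes and with clusters from RNA only. It was kept under 12 of 15 alternatives, over which the ratio ranged from -2.15 to -0.48. Tlr2, Cd14 and Pycard were the 3 members lower in ILC2-like cells, where 3.53% of 8092 genes were lower and 1.88% higher. In endothelial-like cells 5 members of 21 were lower, where 4.45% of 7029 genes were, namely Tlr5 (-0.90), Pycard (-0.81), Tlr3 (-0.77), Clec4d (-0.69) and Tlr13 (-0.61), and none was higher, where 9.87% were. Tlr3 was at 37.8 CPM (78 UMIs) in NW and 22.2 CPM (61 UMIs) in ABX endothelial-like cells, and Clec4d at 86.3 CPM (178 UMIs) and 53.4 CPM (147 UMIs). Cells with a UMI of another lineage's genes made up 79.8% and 72.7% of the endothelial-like cells, and macrophage markers were lower in ABX there too, as given above, and their part in the 5 differences was not tested. When clusters were built from RNA alone, Clec4d and Tlr13 in endothelial-like cells turned to 1.26 and 0.55.

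**Figure D5:**
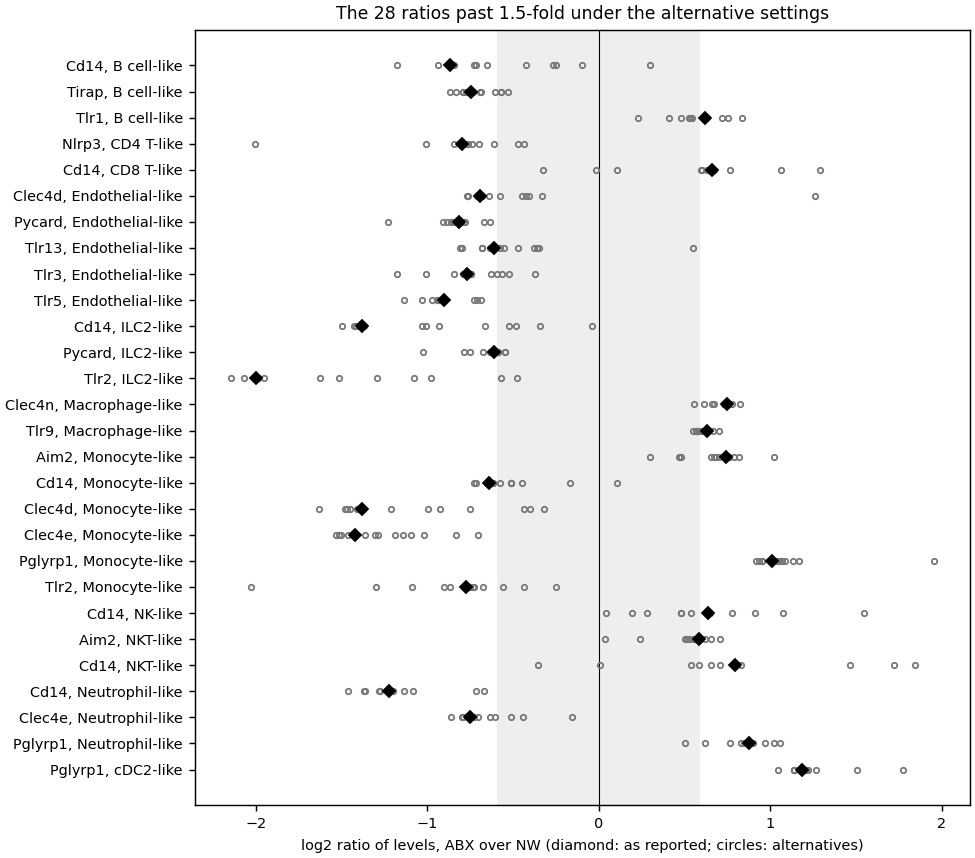
The 28 log2 ratios of at least 1.5-fold (black diamonds) with their values under the alternative settings (open circles). Grey shading marks less than 1.5-fold. All circles of Pglyrp1 in monocyte- and cDC2-like cells, Clec4e in monocyte-like cells, Cd14 in neutrophil-like cells and Pycard and Tlr5 in endothelial-like cells lie outside the shading, and those of Cd14 in B cell-, CD8 T-, monocyte- and NKT-like cells and of Clec4d and Tlr13 in endothelial-like cells cross 0.

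Other genes of the same pathways were taken from 7 lists with 113 genes measured. In macrophage-like cells 102 were tested, of which 2 were higher and 3 lower in ABX, beside 5.13% and 1.53% of all genes, with a median log2 ratio of 0.01 beside 0.02 over all genes. Lbp, which delivers lipopolysaccharide to Cd14, was at 1.48 CPM (53 UMIs) in NW and 5.25 CPM (119 UMIs) in ABX (log2 ratio 1.83), and Socs1, an inhibitor of cytokine signalling, at 3.04 and 5.87 CPM (0.95). Il1rn, the antagonist of the interleukin-1 receptor, was at 7.31 CPM (262 UMIs) and 3.22 CPM (73 UMIs) (-1.18), the scavenger receptor Marco at 4.66 and 2.25 CPM (-1.05) and the lysozyme Lyz1 at 64.3 and 35.0 CPM (-0.88). None of the 20 genes of the TLR and NOD signal chain, the 17 of C-type lectins and their chain or the 19 tested cytosolic nucleic acid sensors passed the fold there.

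In monocyte-like cells 83 of these genes were tested, with 1 higher and 10 lower in ABX, beside 6.32% and 7.07% of all genes, and a median log2 ratio of -0.10 beside 0.03. Macrophage markers in these cells were at 10928 CPM in NW and 7952 CPM in ABX, and their part in the differences was not tested. The names given here were chosen after their values were seen. The higher gene was Otulin (0.82), a deubiquitinase that restrains NF-kB. Among the lower ones were the interleukin-1 genes Il1rn, at 48.1 CPM (141 UMIs) in NW and 8.60 CPM (13 UMIs) in ABX (-2.49), and Il1b, at 155 CPM (454 UMIs) and 89.3 CPM (135 UMIs) (-0.80). The scavenger receptors Msr1 (-1.10) and Cd36 (-1.12), the kinase Ikbke (-0.97), the proteases Ctsb (-0.86) and Ctss (-0.62), the lysozymes Lyz1 (-0.61) and Lyz2 (-0.67) and Ifi205 (-0.75) made up the rest. With 50 principal components the count of genes past the fold in monocyte-like cells was 2 in place of 11.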

How the data were processed

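The authors processed the reads with the BD WTA Rhapsody Analysis Pipeline 1.8 (per the file headers) on GRCm38, and the deposited values are whole-number UMI counts per gene, antibody and cell barcode, without normalization. The submitters' processing notes also name R 3.6.0 and Seurat 3.0.1. Of 17662 NW and 17785 ABX barcodes, those with under 500 UMIs, under 200 genes or over 25% mitochondrial UMIs were left out, as in the study's methods, which left 75214427 and 60770758 UMIs.

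Seurat 5.3.0 (R 4.3.3) was used for log-normalization, 2000 variable genes without the members (9 of them were among the top 2000 before), regression on the UMI count, 30 principal components and weighted nearest neighbours with 8 antibodies, at resolution 0.6, with mixed clusters split at 0.3. A name needed at least 3 markers with 1.5-fold higher counts and a UMI in 10% of the cells. The naming rules were set after the clusters had been seen, and the members, markers and lists were chosen with earlier results of these data known. Doublets were kept. Scrublet (scanpy 1.11.5) marked 344 NW cells (2.76%) and, with its automatic threshold, 1 ABX cell (0.00786%), so it had not worked there, and 324 (2.55%) at the NW threshold.

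UMIs were summed by type and library. CPM has exact Poisson intervals, ratios have exact conditional intervals and shares exact binomial (Clopper-Pearson) intervals (scipy 1.17.1), at 95%. No test between conditions was possible with 1 library each, so a gene was called at 1.5-fold or more with at least 100 UMIs over both libraries in a type of at least 50 cells per library, and the same call over all genes is the background. Shares at equal depth are expected values for cells thinned to 1000 UMIs, shallower cells left out. Values are given for members that lead a type in both libraries or are called in at least 1 type, other members by range and count, and other pathway genes where called in macrophage-like cells. On data simulated from the macrophage-like cells, 195 of 198 changed genes were called (98.5%) and 0.246% of unchanged ones, with the simulated ratio inside its interval for 95.2% of 11155 genes. The simulation drew Poisson counts of summed UMIs with changes set past the fold, so these rates largely follow from its construction. It held no UMIs gathered in few cells, no small types and no spread between libraries. Alternatives changed the scaling (edgeR 4.0.16 TMM), UMI minimum, weighting, filters, doublets, clustering and cells with other lineages' genes. Promoters and coordinates are from RefSeq GRCm38.p6 and GENCODE M21. The annotation the pipeline counted on was not given in the sources used here.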

Additional observations from a re-analysis of the deposited data

Results flagged for a closer look

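Cd14 stood out because its ratio between ABX and NW went in opposite directions in different cell types, with the counting interval of every one of these ratios on 1 side of 0. The log2 ratio of ABX over NW was -1.22 in neutrophil-like cells, -0.64 in monocyte-like cells, -1.38 in ILC2-like cells and -0.87 in B cell-like cells, while it was 0.79 in NKT-like cells, 0.64 in NK-like cells and 0.66 in CD8 T-like cells, beside 0.45 in macrophage-like cells. The difference between types was not tested, since each condition had 1 library. In the lymphoid types the 10 cells with the most Cd14 UMIs held between 62.8% and 81.0% of the NW UMIs, and in NW neutrophil-like cells 67.5%.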

How the results depend on the processing

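No paired analysis was possible because each condition had 1 library and the labels give no replicate numbers, and for the same reason no replicate could be left out. The alternatives with a lower UMI minimum or none leave each ratio as it is and cannot lose a call. Of the 28 ratios past 1.5-fold, 2 were called under every alternative that gave a value (Pglyrp1 in monocyte-like and Cd14 in neutrophil-like cells) and 6 turned their direction under at least 1. Cd14 was 0.30 in B cell-like cells without the cells Scrublet marked with its automatic thresholds, 344 in NW and 1 in ABX. At 1 doublet threshold for both libraries none of the 28 turned its direction. With 50 principal components Cd14 was 0.10 in monocyte-like and -0.016 in CD8 T-like cells. With clusters from RNA only, Cd14 was -0.32 in CD8 T-like cells and Clec4d and Tlr13 were 1.26 and 0.55 in endothelial-like cells, and without cells that held a UMI of another lineage's genes Cd14 was -0.35 in NKT-like cells. The counts of 17 lower and 11 higher pairs became 48 and 33 with a minimum of 30 UMIs, 105 and 88 with no minimum, and 3 and 7 without cells of another lineage's genes, where 119 pairs in place of 214 could be tested. The same counts over all genes were not made under the alternatives, so the members' counts have no background there. Lower pairs numbered 10 with RNA only and 9 with at most 3 UMIs counted per cell. That limit and 1 doublet threshold for both libraries were chosen after seeing the data. Pathway genes past the fold in macrophage-like cells (5) numbered 10 with no minimum and 3 with RNA only. Those in monocyte-like cells (11) numbered 17 with a minimum of 30 UMIs, 24 with none, 19 with members among the variable genes, 7 with RNA only, 2 with 50 principal components, 17 at resolution 1.0 and 6 without cells of another lineage's genes. Where no value or construction shows it, the cause was not tested. Between 16 and 20 members led a type in both libraries, in place of 18, with 15 to 18 members and types shared with the main result. Counting depth limited the members that could be tested to 2 in gamma-delta T-, 3 in mature DC- and 5 in CD8 T- and neutrophil-like cells.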

Other observations

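The fibroblast-like cells, found almost wholly in ABX (5 cells in NW and 88 in ABX), also had UMIs of the panel. In the ABX cells Irak1 was at 189 CPM (144 UMIs), Irak3 at 117 CPM (89 UMIs), Tirap at 52.6 CPM (40 UMIs) and Tlr4 at 52.6 CPM (40 UMIs, with a UMI in 34.1% of the cells), and no comparison with NW was made.

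Within the cDC1-like cells, a small cluster led by Ppef2 and Pde1b (38 NW and 54 ABX cells) had Aim2 at 497 CPM (37 UMIs) in NW and 426 CPM (46 UMIs) in ABX, against 163 and 190 CPM in the main cluster led by Xcr1 and Clec9a, at median depths of 1960 and 1933 UMIs against 8575 and 7887.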
